A study of Homo sapiens with 12 samples.

Results

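The 40 genes described here encode the machinery that takes newly made secretory and membrane proteins into the endoplasmic reticulum (ER), folds them there, clears those that misfold, and senses when folding falls behind. They were chosen by name, as ER stress sensors and genes of ER-associated degradation, folding and translocation outside the HSP and DNAJ chaperone families, and all 40 were found among the 19973 genes of the deposited table. The genes fall into 7 sensors and ER-bound transcription factors, 12 genes of ER-associated degradation, 6 genes of disulfide formation, 4 luminal chaperones or cofactors, 7 translocon genes and 4 signal peptidase genes. RNA was sequenced from 4 groups of prostate cancer cells with 3 libraries each. C4-2 cells, a castration-resistant line of the LNCaP lineage, had been infected with a control lentivirus (lv-control) or with one carrying ARv7 (lv-ARv7). 22Rv-1 cells, a line that came from a xenograft of human prostate cancer, had been infected with a control hairpin lentivirus (lv-shcontrol) or with one against ARv7 (lv-shARv7). ARv7 is a receptor splice variant that lacks the ligand-binding domain and acts without hormone. All 4 groups carried a lentivirus and were grown in RPMI 1640 with fetal bovine serum. The ARv7-expressing and ARv7-depleted cells were made by puromycin selection. The labels do not give the number of separately selected lines behind a group, so differences between selected lines that have nothing to do with ARv7 cannot be told apart from it. The libraries of a group came from triplicate dishes, and the p-values measure only the spread between dishes.

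The unfolded protein response has a branch through the kinase and nuclease IRE1, encoded by ERN1, which splices XBP1 mRNA, a branch through the membrane-bound factor ATF6, and a branch through the kinase PERK and the factor ATF4. The XBP1 and ATF6 branches are known to raise transcription of chaperones, disulfide isomerases, degradation genes and translocon subunits, while the PERK branch lowers protein synthesis and raises ATF4 targets. Prostate luminal cells secrete large amounts of protein, and androgen signalling is known to act on parts of this response in prostate cancer cells. Read counts per gene do not show XBP1 splicing or the cleavage of ATF6 and its relatives, so what follows is mRNA abundance only.

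The promoters of these genes are shown because the responses below can be read against the DNA elements through which the response acts. Windows of the 250 bases before the gene start were available from RefSeq on GRCh38.p14 for 37 of the 40 genes. The ER stress response element, the sequence bound by ATF6 and XBP1 with the factor NF-Y, was searched on both strands as the blocks CCAAT and CCACG with 9 bases between them. It was found in 26 of 35116 windows (0.074%) and in the windows of CRELD2, ERO1B, PDIA6 and XBP1. A second form, ERSE-II, with the blocks ATTGG and CCACG and 1 base between them, was found in 18 windows (0.0513%), among them those of HERPUD1, SDF2L1 and HYOU1. The HYOU1 window held it at 2 places. In the lines below the blocks are in capitals. Where the element lies on the other strand they read as their reverse complements, CGTGG before ATTGG or CGTGG before CCAAT. Each sequence is written 5′ to 3′ on the strand of its gene.
CRELD2: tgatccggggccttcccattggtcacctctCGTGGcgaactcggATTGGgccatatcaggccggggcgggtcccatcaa
PDIA6: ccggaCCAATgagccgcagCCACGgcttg
XBP1: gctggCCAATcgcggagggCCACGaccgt
ERO1B: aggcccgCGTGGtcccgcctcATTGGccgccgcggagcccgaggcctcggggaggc
HERPUD1: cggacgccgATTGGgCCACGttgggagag
SDF2L1: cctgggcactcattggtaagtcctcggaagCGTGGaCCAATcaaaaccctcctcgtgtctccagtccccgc
HYOU1: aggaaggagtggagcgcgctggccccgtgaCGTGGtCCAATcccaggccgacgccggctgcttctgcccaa
These stretches are at chr22:49918524-49918602 (plus strand, intron), chr2:10812848-10812876 (minus strand, intron), chr22:28800598-28800626 (minus strand, between genes) and chr1:236282153-236282208 (minus strand, between genes). The ERSE-II stretches are at chr16:56932016-56932044 (plus strand), chr22:21642084-21642154 (plus strand) and chr11:119057350-119057420 (minus strand), all between genes in GENCODE release 29.

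The motif TGACGTGG, known as the unfolded protein response element and bound by XBP1, was found on either strand in 215 windows (0.612%), among them those of SSR3, SSR4, VCP and HYOU1. In HYOU1 it shares bases with the first ERSE-II. The cAMP response element TGACGTCA, bound by the wider CREB family, was in 578 windows (1.65%) and in 1 of the 37 genes, CREB3L2. SSR3 and CREB3L2 are shown because they differ in their response below, again with the motif in capitals.
SSR3: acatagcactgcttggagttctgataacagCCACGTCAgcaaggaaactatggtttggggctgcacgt
CREB3L2: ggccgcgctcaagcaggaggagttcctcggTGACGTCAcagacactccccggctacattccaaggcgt
The SSR3 stretch is at chr3:156554129-156554196 (minus strand, intron) and the CREB3L2 stretch at chr7:138002228-138002295 (minus strand, between genes). The match is a description of the letters and not evidence of binding.

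Total read counts ran from 12318529 to 14672948 per library. Levels of the pathway genes are given in CPM, counts at a common library depth after TMM scaling of the libraries of a line. These CPM values are therefore not set against each other between the lines. Marker values are CPM by total counts, without TMM scaling. Prostate luminal markers were high in every group. They summed to 4754 to 4891 CPM in C4-2 control libraries and 8855 to 8998 with ARv7, and to 3481 to 3583 CPM in 22Rv-1. Fibroblast markers summed to 7.75 to 9.54 CPM in C4-2 control libraries, with DCN and LUM at 0, and 15.5 to 17.6 with ARv7, and to 45.5 to 47.2 in 22Rv-1 control libraries and 30.7 to 34.5 after depletion. The part of these shifts in the changes below was not tested. Markers of fibroblasts, leukocytes, endothelium and basal cells summed to at most 47.2 CPM. Neuroendocrine markers reached 64.6 CPM, in 22Rv-1 control libraries. Plasma cell markers summed to 151.4 to 194.9 CPM in 22Rv-1, where JCHAIN and IRF4 were at 0 in all control libraries, and to at most 38.6 CPM in C4-2. Nearly all of the 22Rv-1 sum was 1 gene, SDC1, at 147.71 to 191.61 CPM. C4-2 control replicate 3 stood apart from replicates 1 and 2 of its group, where the chi-square of the counts per degree of freedom was 12.3 and 6.85, and between 2.1 and 4.64 for the pairs without it. Ribosomal protein genes took 9.29% to 10.7% of counts in C4-2 control libraries, most in replicate 3, and 7.82% to 8.03% with ARv7. They took 6.85% to 7.17% in 22Rv-1 control libraries and 7.98% to 8.45% after depletion. With ribosomal protein and mitochondrially encoded genes left out of the fit, the counts of called genes below were the same.

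C4-2 cells with ARv7 had more mRNA of several ER genes than control cells. The 40 genes together took 0.584% to 0.6% of all counts in the control libraries and 0.69% to 0.693% with ARv7, with no overlap. Of the 38 genes tested, 17 rose and 5 fell at an edgeR adjusted p under 0.05, and CREB3L1 and DERL3 had too few counts to pass the filter. Fits that did test DERL3 called it higher, as given with the degradation genes. Over all genes tested, 29.6% were called higher and 29.5% lower in the same comparison. The median log2 change of the 38 genes was 0.12 and that of all genes 0.01. Scaling by total counts in place of TMM moved the median of all genes to 0.152 and the share of calls that were higher from 50% to 67.2%, and gave 24 rises and 4 falls among these genes. Bulk RNA does not tell fewer cells of a kind from less RNA per cell.

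In 22Rv-1 cells, depletion of ARv7 was also followed by more rises than falls among these genes. Their share of all counts went from 0.414% to 0.418% in control libraries to 0.431% to 0.434% in depleted ones, with no overlap. That share is on the scale of total counts. On this scale the median log2 change of all genes was 0.056, and 58.5% of all calls were higher, so the shift of the share is not particular to these genes. All 40 were tested, of which 18 rose and 10 fell after depletion, where 23.9% of all genes tested were called higher and 24.1% lower. The median log2 change was 0.14 against 0.01 for all genes. The plot of changes by role sets both comparisons side by side, gene by gene.

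**Figure D1:**
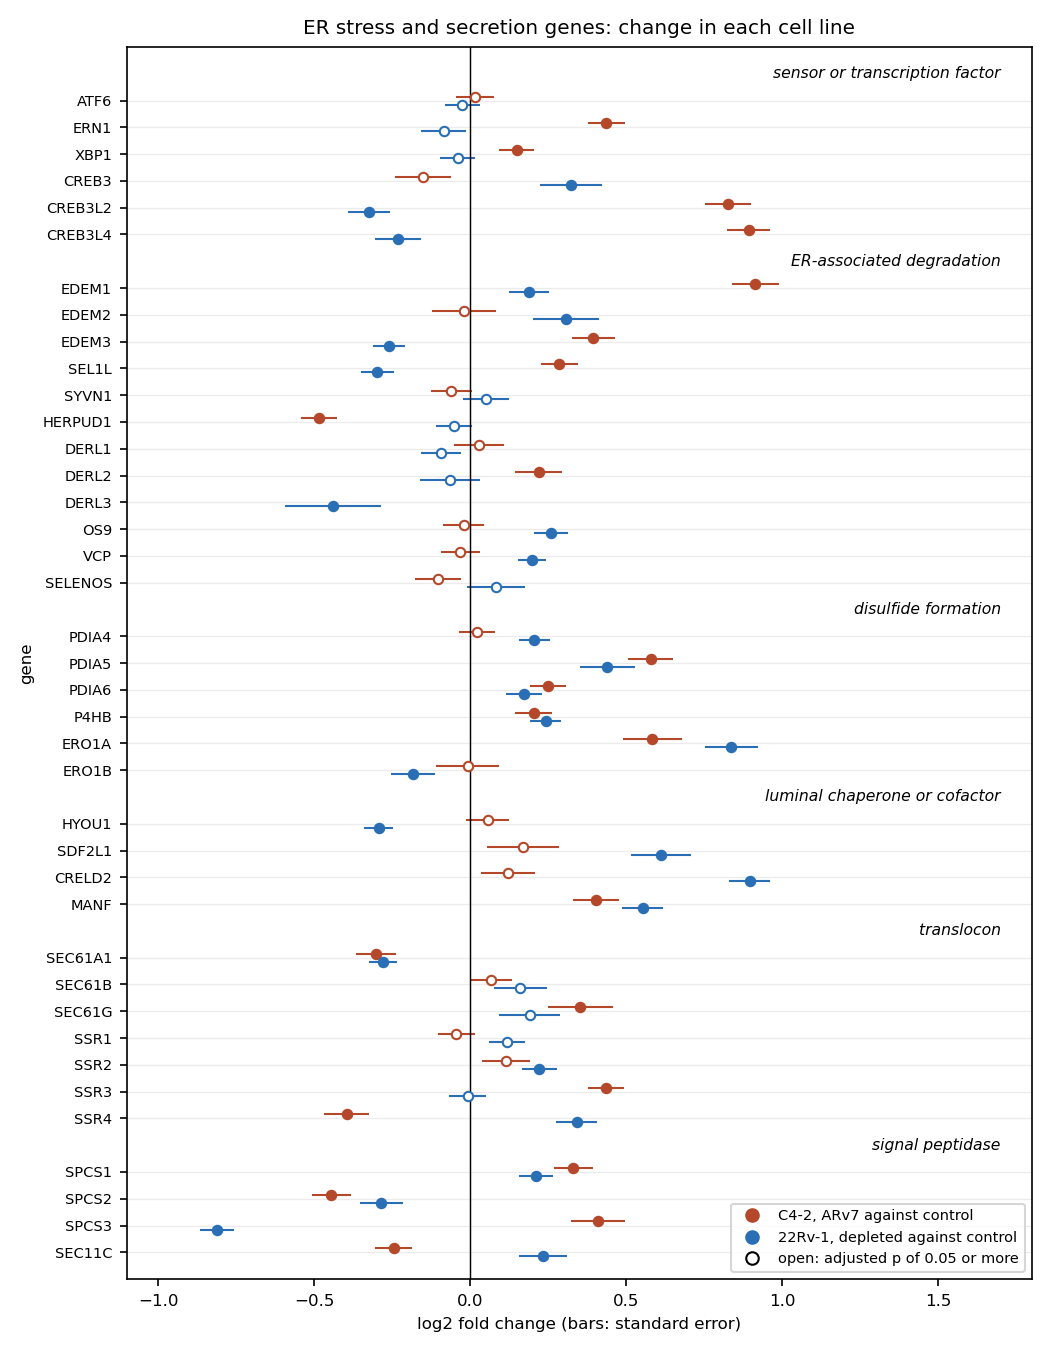
Log2 fold change (x axis) of 39 of the 40 genes (y axis, grouped by role) in C4-2 (ARv7 against control, red) and 22Rv-1 (depleted against control, blue), with bars of 1 standard error. Filled points passed the edgeR threshold. CREB3L1 is left out because its change after depletion lies beyond the axis, and DERL3 has no C4-2 point because it was not tested there. Disulfide formation genes lie mostly to the right of 0 in both colours, while CREB3L2, CREB3L4, EDEM3, SEL1L and SPCS3 have red points on the right and blue points on the left.

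Among the sensors and transcription factors, the ER-bound relatives of CREB had the largest log2 changes. In C4-2, 4 of the 6 tested rose (66.7%) and none fell, with 2 not called. In 22Rv-1, 2 rose and 2 fell (28.6% each), and 3 were not called. Of all genes tested, 29.6% were called higher and 29.5% lower in C4-2, and 23.9% and 24.1% in 22Rv-1. The 22Rv-1 counts of this role are near those shares. CREB3L4 (chr1:153967534-153974361, GRCh38 here and for all genes), an ER-bound factor of the CREB3 family that is abundant in prostate, stood at 74.4, 82.8 and 86.3 CPM in C4-2 control libraries and at 159, 143 and 150.2 with ARv7. The groups did not overlap, and it rose 1.86-fold (log2 change 0.89 ± 0.07 SE, adjusted p = 1.4e-09). Its 22Rv-1 levels were 57.8, 56.7 and 52.6 CPM in control and 49.2, 45.0 and 48.1 in depleted libraries, all of the depleted ones below all of the controls, and it fell 1.17-fold (log2 change -0.23 ± 0.07 SE, adjusted p = 0.007). That fall was not called without depleted replicate 2 (adjusted p = 0.0561). Of the 40 genes, 15 overlap another gene of the table, and XBP1, SSR1, SSR4 and SPCS2 have named pseudogenes. The table lists 3 other genes that overlap CREB3L4, JTB, SLC39A1 and AL358472.7. No label or header names the strand of the libraries, so reads of the overlap cannot be assigned with certainty.

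CREB3L2 (chr7:137874979-138002086), a factor of the same family that drives secretory cargo genes in cartilage, stood at 56.3, 59.1 and 49.3 CPM in C4-2 control libraries and 98.0, 94.7 and 99.7 with ARv7. Every ARv7 library was above every control library, and CREB3L2 rose 1.77-fold (log2 change 0.83 ± 0.07 SE, adjusted p = 1.17e-08). In 22Rv-1 its levels were 78.1, 75.5 and 80.0 CPM in control and 62.9, 61.2 and 62.6 in depleted libraries. Again the groups were apart, now with the depleted cells lower, and it fell 1.25-fold (log2 change -0.32 ± 0.07 SE, adjusted p = 2.55e-05). CREB3, the founding member of the family, did the reverse in 22Rv-1, with 19.8, 22.6 and 21.4 CPM in control and 26.6, 27.4 and 25.6 in depleted libraries, a rise of 1.25-fold (log2 change 0.32 ± 0.10 SE, adjusted p = 0.00461). In C4-2 the CREB3 libraries overlapped, at 55.2, 65.1 and 72.9 CPM in control and 60.4, 60.0 and 53.4 with ARv7 (log2 change -0.15 ± 0.09, adjusted p = 0.16). Without C4-2 control replicate 1 the C4-2 difference of CREB3 was -0.254 (adjusted p = 0.0081), so that library decides whether it is called.

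CREB3L1 (chr11:46277662-46321409), the family member best known from bone and secretory cells, was nearly silent. It had 1 count over all 6 libraries of C4-2. In 22Rv-1 it stood at 0.213, 0.387 and 0.139 CPM in control libraries and at 2.56, 2.91 and 2.68 in depleted ones, which is 10 counts against 110. The groups did not overlap, and the ratio of total-count CPM was 11.6 (95% counting interval 6.08 to 24.9, which covers counting error only; edgeR adjusted p = 2.12e-09). Of these 40 genes it was the only one that the test within a line put past 2-fold.

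The sensors ERN1 and ATF6 and the factor XBP1 had fold changes of 1.35 or less. ERN1, which encodes IRE1, stood at 104, 102 and 99.5 CPM in C4-2 control libraries and at 141, 138 and 134 with ARv7, with all ARv7 libraries higher. It rose 1.35-fold (log2 change 0.44 ± 0.06 SE, adjusted p = 4e-06), and in 22Rv-1, where its libraries overlapped, the log2 change was -0.09 ± 0.07, adjusted p = 0.345. XBP1, the factor that IRE1 activates by splicing, stood at 476, 510.1 and 507 CPM in control and 557, 546 and 552 with ARv7. The C4-2 groups of XBP1 were apart by a narrow margin, with a rise of 1.11-fold (log2 change 0.15 ± 0.06, adjusted p = 0.0251). That call was lost without control replicate 1 (adjusted p = 0.0865) and without ARv7 replicate 1, 2 or 3 (0.0837, 0.0691 and 0.0871). In 22Rv-1 XBP1 was not called (log2 change -0.04 ± 0.06, adjusted p = 0.579). ATF6 was called in neither line, with log2 changes of 0.01 ± 0.06, adjusted p = 0.849 in C4-2 and -0.03 ± 0.06, adjusted p = 0.732 in 22Rv-1.

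Genes of ER-associated degradation, which mark misfolded glycoproteins, pull them out of the ER and hand them to the proteasome, gave 4 rises and 1 fall among the 11 tested in C4-2. In 22Rv-1 they gave 4 rises and 3 falls among 12. EDEM1 (chr3:5187646-5219958), which trims mannose from misfolded glycoproteins, rose most in C4-2 of the 11 genes of this role tested there, from 54.5, 51.4 and 48.1 CPM in control libraries to 89.5, 102 and 99.0 with ARv7. The ARv7 libraries were all higher, and the rise was 1.88-fold (log2 change 0.91 ± 0.07 SE, adjusted p = 2.82e-09). In 22Rv-1 EDEM1 stood at 71.4, 76.2 and 79.8 CPM in control and 89.7, 82.7 and 86.9 in depleted libraries. The depleted libraries were higher there too, and the rise was smaller, 1.14-fold (log2 change 0.19 ± 0.06, adjusted p = 0.0104). It was not called without control replicate 1 (adjusted p = 0.0959) or depleted replicate 1 (adjusted p = 0.0616).

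EDEM3 and SEL1L went up with ARv7 and down after its depletion. EDEM3, another mannosidase of the family, stood at 191, 178 and 156 CPM in C4-2 control libraries and 219.8, 239 and 232 with ARv7. Its 22Rv-1 values were 182, 177 and 186 CPM in control and 155, 154 and 147 in depleted libraries. In neither line did the groups overlap: EDEM3 rose 1.32-fold in C4-2 (adjusted p = 6.3e-05) and fell 1.2-fold in 22Rv-1 (adjusted p = 2.1e-05). SEL1L (chr14:81471547-81533853), the scaffold that holds the ubiquitin ligase SYVN1 in the membrane, stood at 272, 248 and 248 CPM in C4-2 control libraries and 299.6, 319 and 316 with ARv7. In 22Rv-1 its values were 182, 191 and 206 CPM in control and 156, 160.2 and 155 in depleted libraries. All ARv7 libraries were above their controls and all depleted libraries below theirs, with a rise of 1.22-fold (log2 change 0.28 ± 0.06 SE, adjusted p = 0.000334) and a fall of 1.23-fold (-0.30 ± 0.05 SE, adjusted p = 1.69e-06). SYVN1 itself was called in neither line, with log2 changes of -0.06 ± 0.07, adjusted p = 0.455 in C4-2 and 0.05 ± 0.07, adjusted p = 0.599 in 22Rv-1.

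HERPUD1, a small membrane protein that organises the SYVN1 complex and is among the genes most readily induced by ER stress, was the only gene of this role that fell in C4-2. It stood at 297, 318 and 325 CPM in control libraries and at 229.6, 219 and 224 with ARv7. Every ARv7 library was lower, and HERPUD1 fell 1.4-fold (log2 change -0.48 ± 0.06 SE, adjusted p = 5.73e-07). In 22Rv-1 its libraries overlapped and it was not called (log2 change -0.05 ± 0.06, adjusted p = 0.467). OS9, a lectin that delivers glycoproteins to SEL1L, showed the other pattern. It stood at 107, 110.2 and 108 CPM in 22Rv-1 control and 131, 133 and 125 in depleted libraries, where all were higher, and it rose 1.2-fold (log2 change 0.26 ± 0.06 SE, adjusted p = 7.83e-05). In C4-2 OS9 was not called (log2 change -0.02 ± 0.07, adjusted p = 0.798).

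Of the other degradation genes, EDEM2 and VCP, the ATPase that extracts substrates, rose in depleted 22Rv-1 cells by 1.24-fold and 1.15-fold (adjusted p = 0.0123 and 0.000177) and were not called in C4-2. DERL2, a component of the export channel, rose 1.16-fold in C4-2 (adjusted p = 0.0159), a call lost without ARv7 replicate 1 (adjusted p = 0.0715). DERL1 and SELENOS, the selenoprotein that ties VCP to the derlins, were called in neither line, with log2 changes between -0.10 and 0.08. DERL3, the derlin of professional secretory cells, stood at 9.22, 9.76 and 11.3 CPM in 22Rv-1 control and 7.61, 7.42 and 7.33 in depleted libraries. It fell 1.36-fold (log2 change -0.44 ± 0.15, adjusted p = 0.0148), a call lost without control replicate 3 (adjusted p = 0.0868) and in 1 fit of all 12 libraries (adjusted p = 0.0519). In C4-2 DERL3 had 4 counts in the control libraries and 38 with ARv7, a ratio of 10.2 with a 95% counting interval of 3.65 to 39.2. It did not pass the count filter of the main test there. The fits that tested it called it higher: DERL3 had a log2 change of 3.21 ± 1.01 SE by DESeq2 (adjusted p = 0.00436), 3.09 ± 0.86 by edgeR with no filter (adjusted p = 0.00111) and 3.10 ± 0.60 in the fit of all 12 libraries (adjusted p = 3.74e-05). With 4 counts in the control group the size of this change is poorly known.

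Most of the 6 genes of disulfide formation rose in both lines. ERO1A (chr14:52639915-52695900), the oxidase that recharges protein disulfide isomerases, stood at 42.8, 41.4 and 35.5 CPM in C4-2 control libraries and 54.6, 56.4 and 68.7 with ARv7. In 22Rv-1 it stood at 25.2, 28.6 and 31.3 CPM in control and 54.0, 51.2 and 47.0 in depleted libraries. Both gaps were free of overlap: ERO1A rose 1.5-fold with ARv7 (log2 change 0.58 ± 0.09 SE, adjusted p = 2.68e-05) and 1.79-fold after depletion (0.84 ± 0.09 SE, adjusted p = 9.15e-14). PDIA5 (chr3:123067025-123225227), an isomerase known to act on ATF6, stood at 45.6, 50.3 and 46.2 CPM in C4-2 control libraries and 74.0, 69.1 and 69.0 with ARv7. In 22Rv-1 PDIA5 stood at 30.1, 26.3 and 32.8 CPM in control and 42.9, 37.7 and 40.6 in depleted libraries. Again each treated library was above each of its controls, with rises of 1.49-fold (adjusted p = 1.43e-06) and 1.36-fold (adjusted p = 2.04e-05).

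P4HB, the archetypal protein disulfide isomerase, stood at 520.5, 522 and 591 CPM in C4-2 control libraries and 635, 616 and 630.2 with ARv7. The 22Rv-1 values of P4HB were 246, 253 and 230.4 CPM in control and 275, 295 and 292 in depleted libraries. It was higher in all ARv7 and all depleted libraries, by 1.15-fold (adjusted p = 0.00656) and 1.18-fold (adjusted p = 2.27e-05). The C4-2 call was lost without control replicate 2 (adjusted p = 0.0568). PDIA6, an isomerase that dampens IRE1 and whose promoter window holds an ERSE, stood at 197, 183 and 188 CPM in C4-2 control and 227, 224 and 226 in ARv7 libraries. In 22Rv-1 its values were 113, 110.3 and 114 CPM in control and 136, 129.5 and 115 in depleted libraries, with depleted replicate 3 close to the controls. The rises were 1.19-fold (adjusted p = 0.000829) and 1.13-fold (adjusted p = 0.0105), and the 22Rv-1 call was lost without depleted replicate 1 (adjusted p = 0.126) or 2 (adjusted p = 0.0598). PDIA4 rose 1.15-fold in depleted 22Rv-1 cells (adjusted p = 0.000369) and was not called in C4-2 (log2 change 0.02 ± 0.06, adjusted p = 0.762).

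ERO1B, the second ER oxidase, with an ERSE in its promoter window, did not follow ERO1A. It stood at 59.3, 62.5 and 66.5 CPM in 22Rv-1 control and 57.8, 53.9 and 54.2 in depleted libraries and fell 1.14-fold (log2 change -0.18 ± 0.07 SE, adjusted p = 0.0263). This call was lost without control replicate 3, depleted replicate 2 or depleted replicate 3 (adjusted p = 0.0859, 0.0981 and 0.085), with total counts (adjusted p = 0.106) and in 1 fit of all 12 libraries (adjusted p = 0.0605). In C4-2 the log2 change was -0.01 ± 0.10, adjusted p = 0.953. In all, 4 of the 6 genes rose and none fell in C4-2, and 5 rose and 1 fell in 22Rv-1. Of all genes tested, 29.6% were called higher in C4-2 and 23.9% in 22Rv-1.

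Of the 4 luminal chaperones and cofactors, 3 rose and 1 fell in depleted 22Rv-1 cells, and 1 rose and 3 were not called in C4-2. Of all genes tested, 23.9% were called higher and 24.1% lower in 22Rv-1, and 29.6% higher in C4-2. CRELD2 (chr22:49918167-49927540), an ER-resident protein induced by ER stress, stood at 55.7, 59.2 and 49.1 CPM in 22Rv-1 control and 99.2, 102 and 104 in depleted libraries. All depleted libraries were far above the controls, and CRELD2 rose 1.86-fold (log2 change 0.90 ± 0.07 SE, adjusted p = 5.81e-20). In C4-2 it stood at 40.2, 48.3 and 40.1 CPM in control and 44.2, 47.2 and 48.6 in ARv7 libraries, which overlapped (log2 change 0.12 ± 0.09, adjusted p = 0.237). CRELD2 overlaps ALG12 in the table. MANF (chr3:51385291-51389397), a secreted factor that binds the chaperone BiP, rose in both lines. It stood at 45.5, 45.7 and 49.9 CPM in C4-2 control and 60.5, 65.4 and 60.6 in ARv7 libraries, and at 62.7, 62.3 and 57.9 in 22Rv-1 control and 87.6, 85.5 and 95.1 in depleted libraries. None of these groups overlapped within a line, and the rises were 1.32-fold (log2 change 0.40 ± 0.07 SE, adjusted p = 0.00012) and 1.47-fold (0.55 ± 0.07 SE, adjusted p = 3e-11).

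SDF2L1, a cofactor of BiP and its J proteins, stood at 24.6, 20.5 and 21.9 CPM in 22Rv-1 control libraries and 32.3, 31.9 and 38.2 in depleted ones and rose 1.53-fold (log2 change 0.61 ± 0.10 SE, adjusted p = 1.01e-07). In C4-2 its libraries overlapped, at 18.1, 18.8 and 24.2 CPM in control and 23.3, 23.4 and 21.8 with ARv7 (log2 change 0.17 ± 0.12, adjusted p = 0.217). Control replicate 3 was the highest of those 6 libraries, and without it the C4-2 change was 0.31 (adjusted p = 0.0145). HYOU1 (chr11:119044188-119057227), a large chaperone that exchanges nucleotide on BiP, went the other way in 22Rv-1. It stood at 318, 313 and 311 CPM in control and 254, 257 and 257 in depleted libraries, all of them lower, and it fell 1.23-fold (log2 change -0.29 ± 0.05 SE, adjusted p = 1.77e-07). In C4-2 it stood at 269.5, 269 and 317 CPM in control and 314, 300.5 and 276 in ARv7 libraries and was not called (log2 change 0.06 ± 0.07, adjusted p = 0.495). Without C4-2 control replicate 3 that change was 0.137 (adjusted p = 0.0159), and with total counts 0.206 (adjusted p = 0.01).

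Among the 40, the 7 genes with ERSE or ERSE-II blocks in their windows had mixed calls. In depleted 22Rv-1 cells CRELD2, SDF2L1 and PDIA6 rose, HYOU1 and ERO1B fell, and XBP1 and HERPUD1 were not called. In C4-2 cells with ARv7 PDIA6 and XBP1 rose, HERPUD1 fell, and CRELD2, SDF2L1, HYOU1 and ERO1B were not called. The same search found the ERSE in the windows of 4 chaperone genes outside the 40, HSPA5, HSP90B1, CALR and CANX, which all rose in 22Rv-1 (log2 changes of 0.76, 0.61, 0.38 and 0.26). In C4-2 HSPA5, HSP90B1 and CALR rose (0.50, 0.66 and 0.39), and CANX was not called (0.02). Over all genes tested, 23.9% were called higher in 22Rv-1 and 29.6% in C4-2. TGACGTGG was in the windows of 7 genes outside the 40. In C4-2 KDELR3 rose, SEC62 and SRP19 fell, and DNAJC10, SEC24A, TXNDC5 and UBE2J1 were not called. In 22Rv-1 DNAJC10, KDELR3 and SEC62 rose, UBE2J1 fell, SEC24A and SRP19 were not called, and TXNDC5 was not tested. Among the 40, VCP and HYOU1 hold this motif and were not called in C4-2, while in 22Rv-1 VCP rose and HYOU1 fell. SSR3 and SSR4, which also hold it, went in opposite directions in C4-2, as given next.

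**Figure D2:**
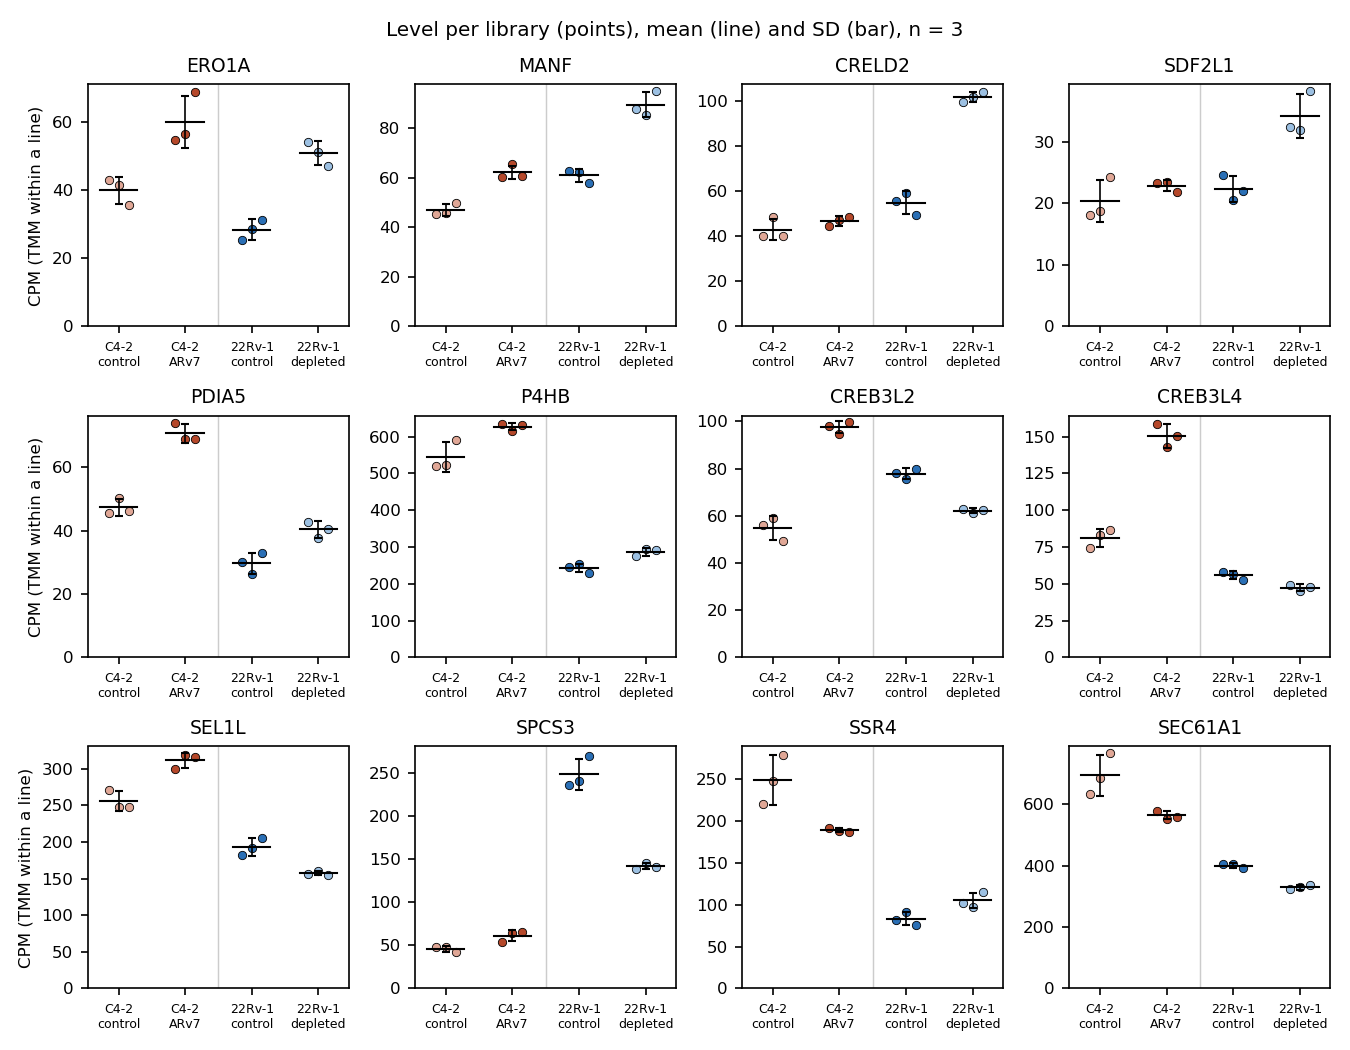
CPM per library (y axis, TMM scaling within a line) of 12 genes in the 4 groups (x axis), with a line at the mean of 3 libraries and a bar for the SD. ERO1A, MANF, PDIA5 and P4HB were higher in the ARv7 and in the depleted cells than in their own controls, CREB3L2, CREB3L4, SEL1L and SPCS3 were higher with ARv7 and lower after depletion, SSR4 did the reverse, and SEC61A1 was lower in both. CPM values of the lines were scaled separately.

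Translocon genes, whose products form the channel through which nascent chains enter the ER, went both ways. In C4-2, 2 rose, 2 fell and 3 were not called. In 22Rv-1, 2 rose, 1 fell and 4 were not called. The C4-2 counts were 28.6% each way, near the 29.6% and 29.5% of all genes. Those of 22Rv-1 were 28.6% and 14.3%, against 23.9% and 24.1% of all. SEC61A1 (chr3:128051641-128071683), the pore subunit, stood at 635, 685 and 767 CPM in C4-2 control libraries and 579.7, 554 and 560.4 with ARv7. In 22Rv-1 it stood at 405, 404 and 392 CPM in control and 323, 329.9 and 338 in depleted libraries. It was lower in all ARv7 and all depleted libraries, by 1.23-fold (log2 change -0.30 ± 0.07 SE, adjusted p = 0.000514) and 1.21-fold (-0.28 ± 0.04 SE, adjusted p = 2.86e-07). SEC61A1 overlaps MGLL and RUVBL1 in the table. The small subunit SEC61G rose 1.28-fold in C4-2 (adjusted p = 0.00676), although control replicate 1 lay within the ARv7 range. That call was lost without control replicate 2 (adjusted p = 0.0539) or ARv7 replicate 2 (adjusted p = 0.0527). In 22Rv-1 SEC61G gave a log2 change of 0.19 ± 0.10, adjusted p = 0.102. SEC61B was called in neither line, with log2 changes of 0.07 ± 0.07, adjusted p = 0.415 and 0.16 ± 0.09, adjusted p = 0.118. Without 22Rv-1 control replicate 1 its 22Rv-1 change was 0.227 (adjusted p = 0.0479).

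The 4 SSR genes encode the translocon-associated protein complex, which sits beside the channel and helps some signal peptides open it, yet they did not move together. SSR3 stood at 206, 206 and 210.3 CPM in C4-2 control libraries and 267, 289 and 286 with ARv7, all of them higher, and it rose 1.35-fold (log2 change 0.43 ± 0.06 SE, adjusted p = 1.93e-06). In 22Rv-1 SSR3 was not called, with overlapping libraries (log2 change -0.01 ± 0.06, adjusted p = 0.927). SSR4 (chrX:153793516-153798499) stood at 220.1, 248 and 279 CPM in C4-2 control libraries and 192, 189 and 187 with ARv7. All ARv7 libraries of SSR4 were lower, and it fell 1.32-fold (log2 change -0.40 ± 0.07 SE, adjusted p = 8.37e-05). In 22Rv-1 SSR4 stood at 82.3, 91.6 and 76.2 CPM in control and 103, 97.9 and 116 in depleted libraries, all of them higher, and it rose 1.27-fold (log2 change 0.34 ± 0.07 SE, adjusted p = 6.98e-06). SSR4 overlaps IDH3G and has a pseudogene, SSR4P1, so its reads may be shared. SSR2 stood at 132, 126 and 114 CPM in 22Rv-1 control and 149, 138 and 147 in depleted libraries, a rise of 1.17-fold (adjusted p = 0.000745). In C4-2 SSR2 was not called (log2 change 0.12 ± 0.08, adjusted p = 0.213), and without control replicate 3 the change was 0.178 (adjusted p = 0.0167). SSR1 was called in neither line, with log2 changes of -0.04 ± 0.06, adjusted p = 0.537 and 0.12 ± 0.06, adjusted p = 0.0888. Without 22Rv-1 control replicate 3 the latter was 0.146 (adjusted p = 0.0236).

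All 4 signal peptidase genes were called in both lines, 2 up and 2 down in each. Of all genes tested, 59.1% were called in C4-2 and 48.0% in 22Rv-1. The signal peptidase complex cuts the signal peptide from proteins that enter the ER. SPCS3 (chr4:176319966-176332245), a subunit the complex needs for activity, stood at 47.6, 47.9 and 41.9 CPM in C4-2 control libraries and 53.4, 64.4 and 64.8 with ARv7. The 22Rv-1 libraries held 235, 240.5 and 269 CPM in control and 138, 146 and 141 in depleted libraries. The ARv7 libraries were all higher and the depleted libraries all lower, with a rise of 1.33-fold (log2 change 0.41 ± 0.09 SE, adjusted p = 0.000461) and a fall of 1.75-fold (-0.81 ± 0.05 SE, adjusted p = 6.14e-23). SEC11C (chr18:59139866-59158832), a catalytic subunit, did the reverse. It stood at 171, 164 and 170.1 CPM in C4-2 control and 134, 147 and 146 in ARv7 libraries, and at 39.1, 42.9 and 44.1 in 22Rv-1 control and 47.8, 49.2 and 51.3 in depleted libraries. The groups were apart in both lines, with a fall of 1.18-fold (adjusted p = 0.00168) and a rise of 1.18-fold (adjusted p = 0.00917). The fall was not called with total counts in place of TMM scaling (log2 change -0.098, adjusted p = 0.17). The rise was lost without control replicate 1 (adjusted p = 0.0828) or depleted replicate 3 (adjusted p = 0.061).

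SPCS1 and SPCS2, accessory subunits, each went the same way in both lines. SPCS1 stood at 90.7, 94.0 and 99.0 CPM in C4-2 control and 121, 117 and 118 in ARv7 libraries, and at 120.4, 117 and 112 in 22Rv-1 control and 134, 133 and 137 in depleted libraries. It rose 1.26-fold (adjusted p = 0.000151) and 1.16-fold (adjusted p = 0.00104), with no overlap in either line. SPCS2 stood at 152, 163 and 144 CPM in C4-2 control and 110.5, 114 and 113 in ARv7 libraries, and at 75.5, 74.4 and 79.1 in 22Rv-1 control and 71.4, 61.3 and 55.6 in depleted libraries. It was lower in all ARv7 and all depleted libraries, by 1.36-fold (adjusted p = 5.26e-06) and 1.22-fold (adjusted p = 0.000491). SPCS1 overlaps GLT8D1 and NEK4 in the table, and SPCS2 has 4 named pseudogenes.

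Set against each other, the 2 manipulations moved part of the machinery in opposite directions and part in the same direction. The within-line comparisons share no library. Among the 38 genes tested in both lines, CREB3L2, CREB3L4, EDEM3, SEL1L and SPCS3 rose with ARv7 and fell after its depletion (5 genes, 13.2%, where 9.42% of the 12080 genes tested in both did so). SEC11C and SSR4 fell with ARv7 and rose after depletion (2 genes, 5.26%, against 7.12% of all). EDEM1, ERO1A, MANF, P4HB, PDIA5, PDIA6 and SPCS1 rose in both (7 genes, 18.4%, against 6.99% of all). SEC61A1 and SPCS2 fell in both (2 genes, 5.26%, against 7.14% of all). Some of these classes rest on calls that were lost when a library was left out, as given above. Those are the C4-2 call of P4HB and the 22Rv-1 calls of EDEM1, PDIA6, CREB3L4 and SEC11C.

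**Figure D3:**
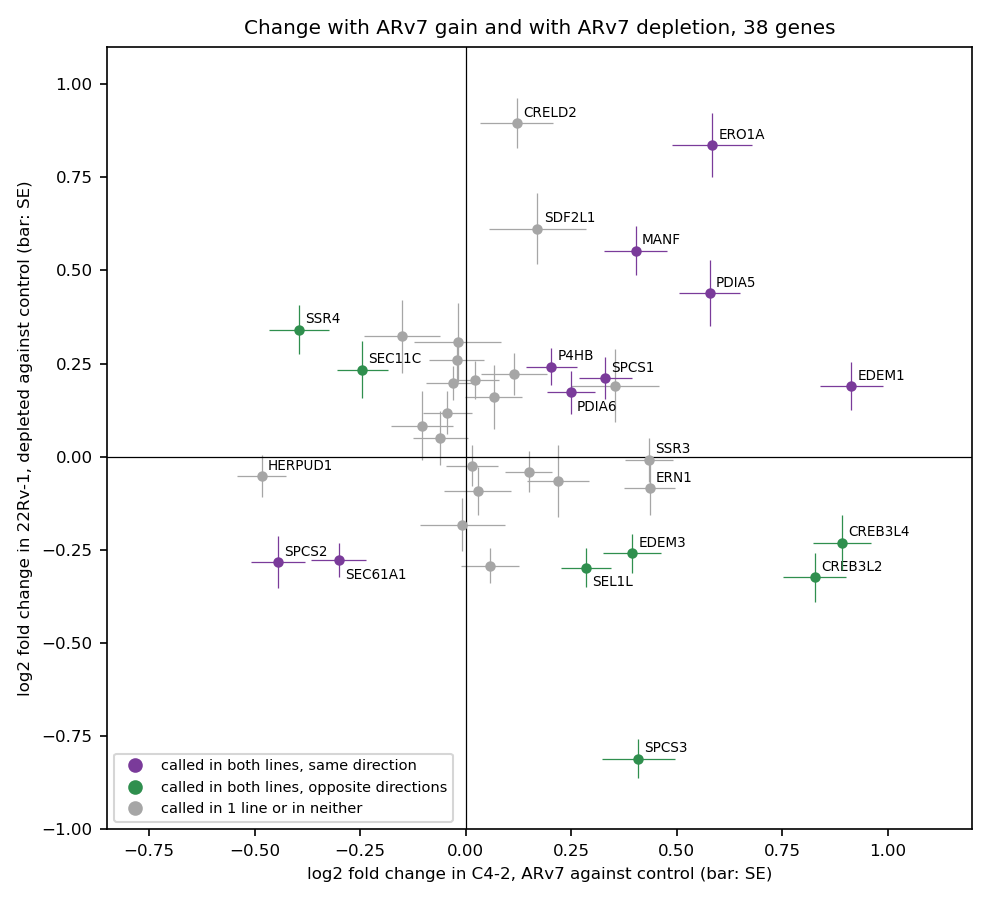
Log2 fold change with ARv7 in C4-2 (x axis) against log2 fold change after depletion in 22Rv-1 (y axis) for the 38 genes tested in both, with bars of 1 standard error. The 7 genes that rose in both lie at the upper right (purple), SEC61A1 and SPCS2 at the lower left, and the genes called in opposite directions (green) at the lower right and upper left.

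A fit of all 12 libraries tested whether the change from low to high ARv7 differed between the lines, that is, ARv7 minus control in C4-2 against control minus depleted in 22Rv-1. It differed for 23 of the 40 genes, with 18 higher and 5 lower in C4-2, where 27.4% of all genes tested were called higher and 23.3% lower. The median log2 difference was 0.23 for the 40 genes and 0.06 for all genes. With total counts 26 were higher and 3 lower, as the higher share of all calls went from 54.0% to 72.0% and the median of all genes to 0.248. The largest differences among well-counted genes were those of genes that rose in both ARv7-expressing and depleted cells: ERO1A with 1.43 ± 0.13 SE (adjusted p = 1.62e-11) and EDEM1 with 1.11 ± 0.10 SE (adjusted p = 6.07e-12). PDIA5, CRELD2 and MANF followed with 1.02, 1.02 and 0.96. SEC61A1 and SPCS2, which fell in both, differed by -0.57 and -0.72.

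For the genes that moved in opposite directions, the test asks whether the size differed. CREB3L4 and CREB3L2 changed more in C4-2 than in 22Rv-1, with differences of 0.67 ± 0.10 SE (adjusted p = 6.28e-07) and 0.51 ± 0.10 SE (adjusted p = 3.38e-05). SPCS3 changed more in 22Rv-1 (-0.40 ± 0.10, adjusted p = 0.00111), but was not called with total counts (-0.21, adjusted p = 0.0921) or by limma on log2(FPKM + 1) (-0.244, adjusted p = 0.0715). For SEL1L, EDEM3, SSR4 and SEC11C no difference in size was called, with -0.01 ± 0.08, 0.14 ± 0.09, -0.05 ± 0.10 and -0.004 ± 0.09 SE. EDEM3 was called without C4-2 control replicate 1 (0.206, adjusted p = 0.0321). Without C4-2 control replicate 3, EDEM2, VCP and SEC61B were called as well (0.403, 0.247 and 0.301, with adjusted p = 0.0179, 0.000823 and 0.0125). SEC61B was also called without 22Rv-1 control replicate 1 (0.307, adjusted p = 0.0279), and DERL2 without 22Rv-1 control replicate 3 (0.31, adjusted p = 0.0465). The call of OS9 (0.25 ± 0.08, adjusted p = 0.0149) was lost without C4-2 ARv7 replicate 1 (adjusted p = 0.0712).

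The control cells of the lines differed in most of these genes. This comparison shares its control libraries with both others. In 22Rv-1 control cells 11 of the 40 genes were higher and 25 lower than in C4-2 control cells, where 42.5% of all genes were called higher and 40.9% lower. The median log2 difference was -0.63 for the 40 genes and 0.03 for all genes. XBP1 was 3.62-fold lower in 22Rv-1 (log2 difference -1.86 ± 0.06 SE, adjusted p = 4e-27), CREB3 3.25-fold, SSR4 3.2-fold, SEC61B 3.12-fold and HERPUD1 2.82-fold. All 6 translocon genes that were called were lower, and SSR2 was not called. Without C4-2 control replicate 3 SSR2 and HYOU1 were called higher (0.145 and 0.133, with adjusted p = 0.0438 and 0.0158). The signal peptidase genes went opposite ways: SPCS3 was 5.06-fold higher in 22Rv-1 (adjusted p = 6.38e-27) and SEC11C 4.29-fold lower (adjusted p = 9.89e-27). DERL3 had 4 counts over the C4-2 control libraries and 419 over those of 22Rv-1, a ratio of 109 (95% counting interval 42.1 to 401).

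FPKM, the authors' counts per gene length and library size, allows levels to be compared between genes. In C4-2 control cells XBP1 was the most abundant of the 40 genes at 156 ± 4.73 FPKM (SD, n = 3), followed by SEC61A1 at 142 ± 10.0. These neighbours overlapped, with XBP1 at 152, 161 and 155 and SEC61A1 at 133, 141 and 153 FPKM per library. P4HB at 98.8 ± 4.85 and PDIA4 at 95.4 ± 3.65 also overlapped, well below the first pair. In 22Rv-1 control cells SEC61A1 was first at 84.9 ± 1.43 FPKM, then PDIA4 at 58.2 ± 0.996, and XBP1 was the third at 47.8 ± 1.63, overlapping P4HB at 45.7 ± 2.08. SEC61A1 and PDIA4 were apart from each other and from XBP1 in every 22Rv-1 control library. SPCS3 was number 35 of the 40 in C4-2 control cells at 6.38 ± 0.617 FPKM and number 7 in 22Rv-1 control cells at 35.8 ± 2.67. CREB3L1 was the lowest of the 40 in all 4 groups and DERL3 the next lowest.

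**Figure D4:**
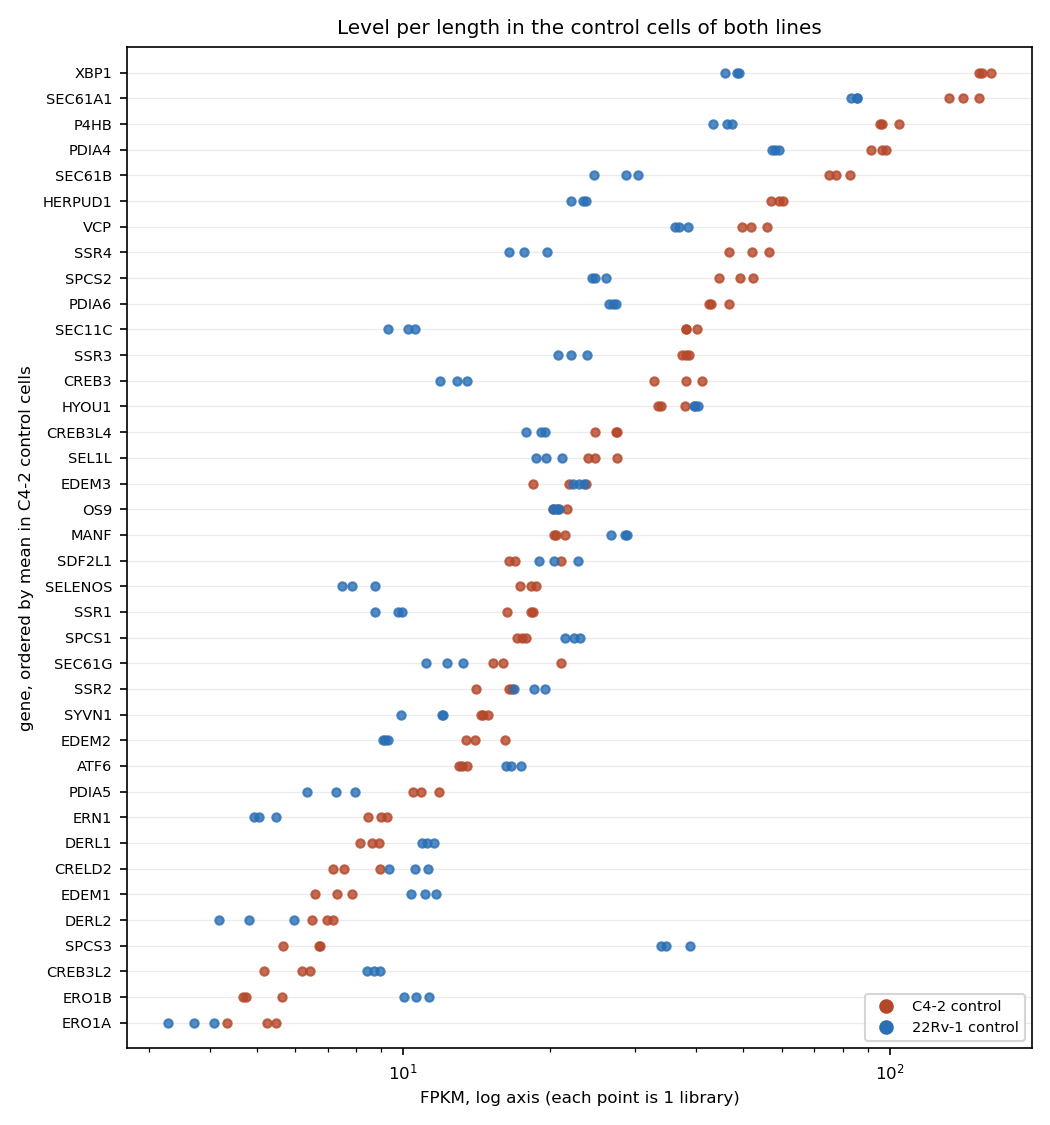
FPKM on a log axis (x axis) of 38 of the 40 genes (y axis, ordered by the mean in C4-2 control cells) in the 3 control libraries of C4-2 (red) and of 22Rv-1 (blue). CREB3L1 and DERL3 are left out as too low. Most blue points lie to the left of the red ones, and SPCS3 lies far to the right.

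Genes of the same pathway outside the 40 were counted in 7 lists of 84 genes. Of the 82 tested in C4-2, 23 rose and 26 fell, where 29.6% and 29.5% of all genes did. Of the 81 tested in 22Rv-1, 25 rose and 17 fell, where 23.9% and 24.1% of all genes did. BiP, encoded by HSPA5 and the chief chaperone of the ER, rose in both lines, by 1.41-fold with ARv7 and 1.7-fold after depletion (adjusted p = 2.7e-07 and 1.26e-24). HSP90B1, the ER member of the HSP90 family, rose 1.58-fold and 1.53-fold (adjusted p = 1.48e-08 and 1.52e-21). Of the 15 ER chaperones of that list, 6 rose and 1 fell in C4-2, and of the 14 tested in 22Rv-1 9 rose and 1 fell. Genes of the PERK and ATF4 arm went down instead: of 11, 1 rose and 6 fell in C4-2, and none rose and 8 fell in 22Rv-1. ATF3, a stress-induced factor, was the gene that rose with ARv7 (1.9-fold, adjusted p = 3.65e-09), while CHAC1, a glutathione-degrading enzyme, fell 1.51-fold (adjusted p = 6e-06). Both fell after depletion, ATF3 by 1.25-fold and CHAC1 by 1.32-fold (adjusted p = 1.59e-06 and 0.000289). After depletion SESN2, a sestrin, and TRIB3, a pseudokinase, fell 1.8-fold and 1.5-fold (adjusted p = 1.74e-20 and 2.26e-17). With ARv7 TRIB3 fell 1.14-fold (adjusted p = 0.0225) and SESN2 was not called (adjusted p = 0.22).

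Of 14 further ER-associated degradation genes, 2 rose and 8 fell in C4-2, and 4 rose and 2 fell in 22Rv-1. The shares of all genes were again 29.6% higher and 29.5% lower in C4-2, and 23.9% and 24.1% in 22Rv-1. ERLEC1, an ER lectin, rose 1.94-fold with ARv7 (adjusted p = 1.15e-09) and was not called after depletion (adjusted p = 0.0526). Of 13 signal recognition and auxiliary translocon genes, 3 rose and 8 fell in C4-2, and 2 rose and 3 fell in 22Rv-1. SRP19, a subunit of the signal recognition particle, fell 1.58-fold with ARv7 (adjusted p = 1.13e-05), and TRAM1, a translocon partner, rose 1.48-fold after depletion (adjusted p = 1.57e-14). TRAM1 fell 1.26-fold with ARv7 (adjusted p = 9.84e-05), and SRP19 was not called after depletion (adjusted p = 0.82). Of 16 ER to Golgi transport genes, 6 rose (37.5%) and 2 fell in C4-2, and 6 rose and 1 fell in 22Rv-1. SEC24D, a coat subunit of transport vesicles, rose 2.09-fold with ARv7 (adjusted p = 1.62e-08), and KDELR1, a receptor that returns escaped ER proteins, rose 1.34-fold after depletion (adjusted p = 9.21e-10). SEC24D also rose 1.56-fold after depletion (adjusted p = 6.49e-06), and KDELR1 was not called with ARv7 (adjusted p = 0.96). KDELR3, a related receptor added after its values were seen, rose 6.03-fold with ARv7 (adjusted p = 4.3e-06), from 0.868 ± 0.469 to 5.29 ± 1.64 CPM (SD, n = 3). After depletion KDELR3 also rose, by 1.61-fold (adjusted p = 0.00325). Of 9 oligosaccharyltransferase genes, 4 rose and 1 fell in each line, with DDOST, a core subunit, up 1.31-fold in C4-2 (adjusted p = 2.95e-05) and MAGT1 up 1.31-fold in 22Rv-1 (adjusted p = 2.51e-08). Each also rose in the other line, DDOST 1.18-fold and MAGT1 1.15-fold (adjusted p = 5.88e-05 and 0.00583). Of the 4 tested genes of ATF6 processing and other ER-bound factors, MBTPS2, a protease that cuts ATF6, rose 1.5-fold in C4-2 (adjusted p = 3.59e-07) and ATF6B fell 1.24-fold in 22Rv-1 (adjusted p = 0.00025), with no other call.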

How the data were processed

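The deposited table gave raw counts per gene for 12 libraries and FPKM, which the authors computed from those counts, gene length and library total. Recomputing FPKM from the counts gave the deposited values back. Reads were trimmed with Cutadapt 2.7, per the labels' protocols. Aligner, counting tool and strand: not given in the sources used here. Of 19974 lines, 1 had no gene identifier and was left out. The submitters' processing notes name hg18, but all 40 genes lie within 10000 bases of their GENCODE release 29 positions, so coordinates are GRCh38, as the table has them.

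Each line was fitted on its own, and all 12 libraries together for differences between lines, with edgeR 4.0.16: filterByExpr by group, TMM, the quasi-likelihood F-test, and a Benjamini-Hochberg adjusted p under 0.05 over all genes tested (12783, 13459 and 14235). Each SE is the log2 change over the root of F. At 3 counts a library gives 0.204 to 0.244 CPM. Exact counting intervals use total counts. The test was checked on simulated data with 3 libraries a group and 50 genes a fold. At 1.2-fold it called 42% in C4-2 (12759 genes), 42% in 22Rv-1 (13425) and 4% for the difference between lines (14125). At 1.5-fold it called 96%, 98% and 74%. Of all simulated calls, 7.65%, 3.95% and 2.9% were unchanged genes. The simulated changed genes had a mean of at least 50 counts, and all genes shared 1 dispersion. The simulations gave 183, 177 and 138 calls, where 59.1%, 48.0% and 50.7% of all genes were called in the real fits. The adjustment is stricter where few genes change, so these rates do not carry over to the real fits.

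The 40 genes and the lists were chosen with earlier results of these data known. Named with each library's value were, per role and line, up to 3 called genes with the smallest adjusted p, genes called in opposite directions and genes past 2-fold. From each list of other genes, up to 2 per line with the smallest adjusted p in that line were named. Genes shown for their sequence or for an overlap were added after their values were seen. The alternatives used DESeq2 1.42.0, edgeR with the size factors of DESeq2, total counts, fits without ribosomal protein and mitochondrially encoded genes, no count filter, only genes at a mean of 5 CPM or more, a replicate block, limma 3.58.1 on log2(FPKM + 1) and log2(FPKM + 0.1) at a mean of at least 1 FPKM, 1 fit of all libraries, and leaving out each library. Protein sequences were not analysed here. The check of the group labels against the targeted gene, and 1 gene of the lists that the rule would name, are not reported here.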

Additional observations from a re-analysis of the deposited data

Results flagged for a closer look

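For 23 genes the change from low to high ARv7 differed between the lines by the interaction test of the 12-library fit (edgeR adjusted p under 0.05). The values are log2 differences, ARv7 minus control in C4-2 less control minus depleted in 22Rv-1. Among sensors and factors they were 0.67 for CREB3L4, 0.51 for CREB3L2 and 0.36 for ERN1. Among degradation genes they were 2.66 for DERL3, 1.11 for EDEM1, 0.25 for OS9 and -0.53 for HERPUD1. DERL3 had 4 counts in all in the C4-2 control libraries, and its difference was 0.013 by limma on log2(FPKM + 1) (adjusted p = 0.926) and 1.08 on log2(FPKM + 0.1).

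All disulfide formation genes except ERO1B were in this set, with 1.43 for ERO1A, 1.02 for PDIA5, 0.45 for P4HB, 0.43 for PDIA6 and 0.24 for PDIA4. The luminal cofactors gave 1.02 for CRELD2, 0.96 for MANF, 0.79 for SDF2L1 and -0.23 for HYOU1. The HYOU1 difference was not called without C4-2 control replicate 3 (-0.141, adjusted p = 0.0831), C4-2 ARv7 replicate 3 (-0.176, adjusted p = 0.109) or 22Rv-1 control replicate 1 (-0.217, adjusted p = 0.0523). With total counts it was -0.04 (adjusted p = 0.696), and by limma -0.039 and -0.04 (adjusted p = 0.687 and 0.684). The translocon genes gave 0.55 for SEC61G, 0.43 for SSR3, 0.34 for SSR2 and -0.57 for SEC61A1. The signal peptidase genes gave 0.55 for SPCS1, -0.72 for SPCS2 and -0.40 for SPCS3.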

How the results depend on the processing

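Of the calls among the 40 genes, 17 of 22 in C4-2, 22 of 28 in 22Rv-1, 19 of 23 for the difference between lines and 32 of 36 between control cells were kept in every alternative that tested them. Between control cells ATF6 lost its call only in the replicate block, which does not test that comparison, as given below. Leaving out 1 library gave 20 to 26 calls in C4-2 (15 to 21 higher, 5 to 6 lower), 25 to 28 in 22Rv-1 (16 to 19 and 8 to 10), 22 to 25 for the difference between lines (17 to 21 and 4 to 5) and 34 to 37 between control cells (9 to 12 and 25). Total counts gave 24 higher and 4 lower in C4-2, and 26 higher and 3 lower for the difference between lines, with the shift of all genes given beside those results. Limma on log2(FPKM + 1) and on log2(FPKM + 0.1), which use the same totals, gave 24 higher and 4 lower in C4-2 and also 3 lower for the difference between lines. Fits without ribosomal protein and mitochondrially encoded genes gave the main counts in every comparison. Under limma the ATF6 difference between lines changed from -0.003 to 0.172 (adjusted p = 0.0385) on log2(FPKM + 1) and 0.182 (adjusted p = 0.0345) on log2(FPKM + 0.1). In the same fits the median difference of all genes was 0.144 and 0.185, where it was 0.062 in the main fit. The cause was not tested.

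The replicate block gave separate terms to replicates 2 and 3 of each line. Between control cells it therefore compared the fitted levels of replicate 1, and cannot test the calls of that comparison. In that fit ATF6, CREB3L1 and OS9 were not called (0.179, 1.665 and -0.202), and SSR2 was (0.281). The OS9 call between control cells was lost with total counts (-0.023, adjusted p = 0.723) and by limma (adjusted p = 0.706 and 0.699). CRELD2 lost its call without 22Rv-1 control replicate 2 (adjusted p = 0.0505), and CREB3L1 without that library or C4-2 control replicate 2 or 3 (adjusted p = 0.0998, 0.086 and 0.0823). Without C4-2 control replicate 1 the CREB3L1 difference went from 2.84 to 4.75. Same-numbered libraries did not deviate together (correlations of -0.048 to 0.025), so the numbers do not pair the samples. With the replicate number as a block 21 genes were called in C4-2 (XBP1 lost, adjusted p = 0.0642), 28 in 22Rv-1 and 23 for the difference between lines. Several within-line calls of changes under 1.2-fold were lost when 1 library was left out, so changes of that size are weakly held by 3 libraries a group.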
